A study of Mus musculus with 3 samples.

Results

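Transcripts of 10 macrophage scavenger and phagocytic receptors (Msr1, Marco, Cd36, Cd68, Mrc1, Cd14, Trem2, Axl, Mertk and Mpeg1) were compared between a cytarabine-resistant mouse leukaemia line and its sensitive parent. The genes were chosen by name, and for each the brightest of its probes, by the mean of all 3 arrays, was used. All 10 were found among the 17742 genes that the probes named, and 14 probes carried their symbols. Cytarabine (Ara-C) is a nucleoside analogue that blocks DNA synthesis after the cell has phosphorylated it. The resistant group was 1 array of B117HS, a line obtained from B117P by exposure to rising concentrations of cytarabine over about 10 weeks, with an IC50 about 10 times that of the parent per the labels. The sensitive group was 2 arrays, replicates 1 and 2, of the parental line B117P. Both lines are acute leukaemia cells from bone marrow of BXH-2 mice, an inbred strain known for spontaneous myeloid leukaemia, and were grown under the same culture protocol. B117HS is 1 derived line, so the effects of the drug and those of drift in culture cannot be told apart. The labels do not state whether separate cultures supplied the sensitive arrays. Their spread, on which every p-value rests, may therefore be technical.

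Macrophages take up lipoproteins, microbes and dying cells through several families of surface receptors. Class A and class B scavenger receptors bind modified lipoproteins and bacterial surfaces, the mannose receptor binds glycans, and the TAM receptor tyrosine kinases bind dying cells through bridging proteins that recognise phosphatidylserine. Internalised cargo passes to phagosomes and lysosomes, where hydrolases and pore-forming proteins act on it. In bone marrow these receptors mark mature monocytes and macrophages more than progenitors.

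Array intensity is linear, in the authors' units, and reaches below 0, as it can after background subtraction; differences are given as log2(intensity + 50), resistant minus sensitive. The resistant array was dimmer: its median intensity was 24.9, against 58.4 and 72.5 on the sensitive arrays. Over 6167 probes averaging at least 500 units its median log2 ratio to the sensitive mean was -0.77, and each difference is therefore also given after every array was scaled on these bright probes. The median difference of all genes was -0.33 as deposited and -0.06 after scaling. A gene was called when limma's Benjamini-Hochberg adjusted p was under 0.05 and the resistant array differed from both sensitive arrays by 1 log2 unit or more to the same side; "rose" and "fell" are used only of genes called on both scales. Mpo, a primary granule gene of myeloid precursors, read 80905 on the resistant array, against 76710 and 84138 on the sensitive arrays. The 5 measured T cell markers summed to 115 units on the resistant array, against 322 and 286 on the sensitive arrays, and the erythroid and megakaryocyte markers also summed to low values in both lines. The 6 stroma and endothelium markers summed to 1619 units on the resistant array, against 1076 and 1159 on the sensitive arrays. Most of this was Pecam1 (1590, against 708 and 824), called higher after scaling but not as deposited. Pecam1 was chosen after its values were seen. In bulk RNA, fewer cells carrying a receptor and less of its transcript per cell cannot be told apart.

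Mpeg1, Trem2, Mrc1 and Cd68 fell in the resistant cells, Cd36 was called lower as deposited only, and none of the 10 receptors was called higher. In limma, 5 of the 10 were called lower as deposited, where 18.5% of all genes were. After scaling 4 of 10 were called lower, where 8.45% of all genes were. The same 4 were called on both scales, against 8.35% of all genes. Called in either direction were 23.7% of all genes as deposited and 18.3% after scaling. With readings under 50 units set to 50 the direction of all 5 held, but none passed the adjusted p (limma adjusted p 0.0714 for Mpeg1, 0.0866 for Mrc1, 0.14 for Cd68, 0.203 for Trem2 and 0.0898 for Cd36). None was called higher on either scale, where 5.23% and 9.86% of all genes were, and 5.21% on both. At an unadjusted p under 0.05 in limma, 1804 of all 17742 genes were higher as deposited and 3716 after scaling. Among the 10 receptors it was 1 as deposited (Cd14) and 2 after scaling (Cd14 and Axl). After centring on array medians none was called higher either. In limma, 3 of the 10 were higher there at an adjusted p under 0.05, as were 5592 of all 17742 genes. The 3 receptors did not reach the required size from both sensitive arrays. These were Cd14, Axl (0.66, limma adjusted p = 0.0329) and Mertk (0.59, limma adjusted p = 0.0128). Centring added the same amount to every gene's difference, and those of Axl and Mertk were 0.09 and 0.02 as deposited. All Mertk readings were under 50 units, so its level could not be compared. The receptors' median difference was -0.87 as deposited and -0.53 after scaling. On the resistant array 6 of the 10 read under 50 units, as did 49.2% of all genes.

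**Figure D1:**
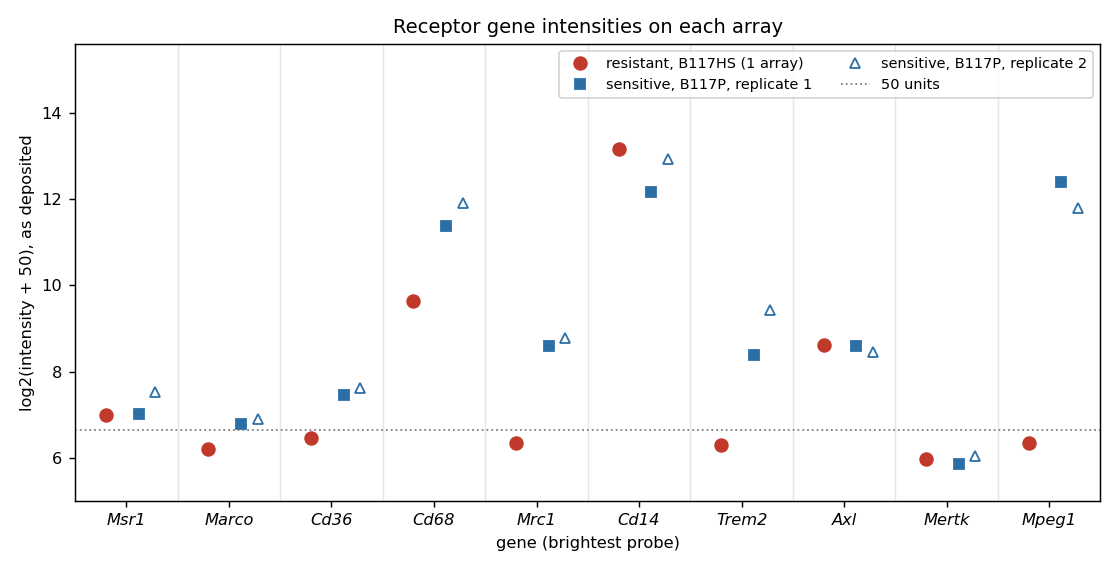
Intensity of the 10 receptor genes on each array, as log2(intensity + 50) on the deposited scale; red circles are the resistant array, blue squares and open triangles the sensitive replicates 1 and 2, and the dotted line is 50 units. Mpeg1, Mrc1 and Trem2 lie below that line on the resistant array and well above it on both sensitive arrays, whereas Mertk lies below it on all 3.

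The promoter windows of the 4 receptors that fell are shown to give the sequence around their starts. They come from RefSeq's GRCm38.p6 annotation, 250 bases before to 50 after the start of the gene, written 5' to 3' on the gene's strand. Capitals mark GGAAGT, the core bound by PU.1, on either strand, and TGANTCA, the AP-1 motif. No 2 of these matches overlapped.
Mpeg1, chr19:12460520-12460819, plus strand: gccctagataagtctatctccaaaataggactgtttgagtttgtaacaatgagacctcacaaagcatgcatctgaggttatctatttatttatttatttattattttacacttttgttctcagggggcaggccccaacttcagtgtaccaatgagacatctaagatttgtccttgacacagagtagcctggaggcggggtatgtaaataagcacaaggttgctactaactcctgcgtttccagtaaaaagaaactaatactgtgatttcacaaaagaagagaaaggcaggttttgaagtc
Trem2, chr17:48346151-48346450, plus strand: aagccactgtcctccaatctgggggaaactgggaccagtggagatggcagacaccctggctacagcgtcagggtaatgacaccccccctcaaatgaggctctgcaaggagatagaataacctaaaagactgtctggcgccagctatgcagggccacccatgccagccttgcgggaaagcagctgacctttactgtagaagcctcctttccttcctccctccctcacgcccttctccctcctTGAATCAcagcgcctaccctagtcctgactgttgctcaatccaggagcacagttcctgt
Mrc1, chr2:14229164-14229463, plus strand: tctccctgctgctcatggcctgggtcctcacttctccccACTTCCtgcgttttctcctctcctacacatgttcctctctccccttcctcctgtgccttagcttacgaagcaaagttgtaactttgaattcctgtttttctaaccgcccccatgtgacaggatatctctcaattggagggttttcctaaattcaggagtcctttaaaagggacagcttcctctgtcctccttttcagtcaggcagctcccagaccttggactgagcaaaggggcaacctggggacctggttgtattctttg
Cd68, chr11:69666121-69666420, minus strand: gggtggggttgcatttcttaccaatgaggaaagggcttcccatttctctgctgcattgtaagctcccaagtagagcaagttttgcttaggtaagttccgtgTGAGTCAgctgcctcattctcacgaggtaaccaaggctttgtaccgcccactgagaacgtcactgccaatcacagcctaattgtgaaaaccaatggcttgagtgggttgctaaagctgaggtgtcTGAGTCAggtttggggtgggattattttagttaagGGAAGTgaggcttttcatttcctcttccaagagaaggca
Cd68 held 1 PU.1 core and 2 AP-1 motifs, Mrc1 held 1 PU.1 core, Trem2 held 1 AP-1 motif and Mpeg1 held neither. Among 8 receptors with a window in the table (Cd14 and Msr1 had none there), 3 held a PU.1 core and 2 an AP-1 motif, where 23.8% and 7.81% of all 32851 windows did. The C/EBP motif TTGCNNAA was in 2 of the 8 (Cd68 and Trem2) and in 10.8% of all windows, and the interferon response pattern, GAAA repeated after 2 bases of any kind, was in 0 of the 8 and 3.44% of all. Both strands were searched for each motif, and a match is a description of the letters only.

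Mpeg1 showed the largest difference among the 10. It encodes a pore-forming protein that macrophages deploy against bacteria in phagosomes. Its brightest probe read 31.1 units on the resistant array, against 5369.7 and 3529.7 on the sensitive arrays (4449.7 ± 1301, SD, n = 2). The resistant reading was thus near the median of all probes on that array, and both sensitive readings were far above it. The log2 difference was -5.76 (SE 0.26, limma adjusted p = 1.99e-08) as deposited and -5.42 (SE 0.35, limma adjusted p = 0.00822) after scaling. With the resistant reading set to 50, Mpeg1 was at least 87.1-fold lower in resistant cells as deposited. After scaling, the resistant reading became 53.1 units, just above 50, and Mpeg1 was 82.0-fold lower. Both folds are by means of log2 intensity, and the second rests on a reading that was under 50 units as deposited. Only 7 genes of 17742 had a lower difference on either scale. A second Mpeg1 probe was dimmer and showed the same direction. It read 23.3 units on the resistant array, against 198 and 338 on the sensitive arrays, a log2 difference of -2.08.

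Over the 3 arrays, the 5 genes whose centred profile lay nearest to that of Mpeg1 by Euclidean distance (log2 units), among genes at or above the median brightness, were Pou2f2 (0.24), C330007P06Rik (0.31), Hk3 (0.35), Nsmce4a (0.37) and Dscam (0.39). All 5 had log2 differences between -6.09 and -5.31, and 3 arrays allow no finer comparison.

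Trem2 encodes a lipid-sensing receptor of macrophages and microglia that signals through the adaptor Tyrobp. Its probe read 28.0 units on the resistant array, against 285 and 639.7 on the sensitive arrays. Resistant cells were lowest, and the sensitive arrays themselves were 1.04 apart on the log2 scale, a gap of at least 1 that 0.857% of all genes showed. The log2 difference was -2.62 (SE 0.39, limma adjusted p = 0.00017), and it was -2.10 from replicate 1 and -3.14 from replicate 2. After scaling it was -2.30 (SE 0.49, limma adjusted p = 0.046). Against readings raised to 50 units the fall was at least 8.53-fold. Quantile normalization ended the call of Trem2 (log2 difference -1.97, limma adjusted p = 0.108).

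Mrc1 encodes the mannose receptor, an endocytic lectin of tissue macrophages. It read 31.1 units on the resistant array, against 333 and 390.4 on the sensitive arrays (361.7 ± 40.6, SD, n = 2). The sensitive arrays lay close together and the resistant array was below both. The log2 difference was -2.34 (SE 0.29, limma adjusted p = 4.99e-05) as deposited and -1.99 (SE 0.21, limma adjusted p = 0.0147) after scaling. With the resistant reading set to 50 it was at least 7.21-fold lower as deposited. After scaling, the resistant reading became 53.1 units, just above 50, and Mrc1 was 6.79-fold lower. Both folds are again by means of log2 intensity, and the second rests on a reading that was under 50 units as deposited.

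Cd68, a lysosomal glycoprotein of macrophages counted among the class D scavenger receptors, kept a clear signal in the resistant cells. It read 747 units there, against 2593 and 3819 on the sensitive arrays (3206 ± 867, SD, n = 2). The resistant reading was below both sensitive readings and far above 50 units. Its log2 difference was -2.005 (SE 0.25, limma adjusted p = 4.23e-05) as deposited and -1.27 (SE 0.27, limma adjusted p = 0.0438) after scaling. Quantile normalization ended the call of Cd68 (-1.42, limma adjusted p = 0.0819).

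**Figure D2:**
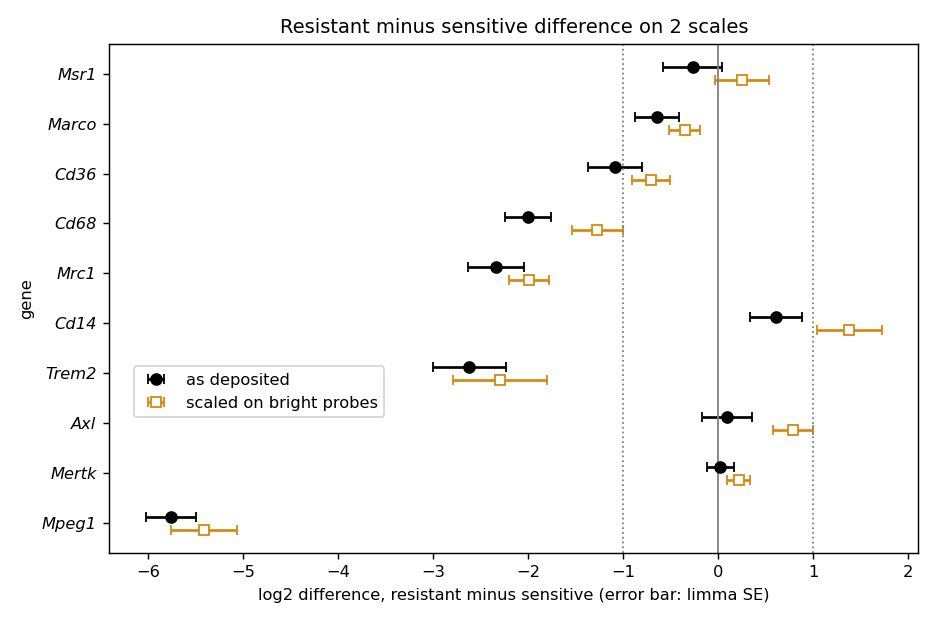
Log2 difference of each receptor gene, resistant minus sensitive, as deposited (black circles) and after scaling on bright probes (open orange squares), with limma's SE as error bars and dotted lines at -1 and 1. Mpeg1 (-5.76 and -5.42), Trem2, Mrc1 and Cd68 lie below -1 on both scales, Cd36 on the deposited scale only, and Cd14 lies above 1 after scaling only, without passing the adjusted p.

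Cd36, Marco and Msr1 were dim in both lines. Cd36, a class B receptor for oxidised lipoprotein and long-chain fatty acids, read 37.3 units on the resistant array, against 127 and 145 on the sensitive arrays. All 3 readings were low and the resistant one was the lowest. Its log2 difference was -1.09 (SE 0.29, limma adjusted p = 0.00793) as deposited, just past the size required for a call, and -0.71 (SE 0.20, limma adjusted p = 0.0739) after scaling. Its other probe read 1.56 units on the resistant array, against 2.48 and 0 on the sensitive arrays, which gave no usable signal.

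Marco, a class A receptor for bacteria and inhaled particles, read 23.3 units on the resistant array, against 59.6 and 69.9 on the sensitive arrays. Its difference of -0.64 (SE 0.24, limma adjusted p = 0.0395) was short of the size required, and it was -0.35 after scaling (limma adjusted p = 0.182). Msr1, the founding class A receptor for modified lipoprotein, read 77.8 units on the resistant array, against 79.5 and 133 on the sensitive arrays. The resistant reading was next to that of replicate 1. Its difference was -0.27 (SE 0.31, limma adjusted p = 0.498) as deposited and 0.25 (SE 0.28, limma adjusted p = 0.54) after scaling, so the sign turned with the scale. A second Msr1 probe read -1.56 units on the resistant array, against 7.45 and 5.28 on the sensitive arrays.

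Cd14, the co-receptor that hands bacterial lipopolysaccharide to Tlr4, was not called on either scale. It read 9072 units on the resistant array, against 4556 and 7712 on the sensitive arrays (6134 ± 2232, SD, n = 2). The resistant reading was the highest of the 3, and the sensitive arrays differed by 0.75 on the log2 scale. The log2 difference was 0.61 (SE 0.27, limma adjusted p = 0.0826) as deposited, or 0.99 from replicate 1 and 0.23 from replicate 2. After scaling it was 1.38 (SE 0.34, limma adjusted p = 0.0603), past the required size from each sensitive array (1.72 and 1.04) but not past the adjusted p. Centring on array medians put Cd14 past the adjusted p (1.18, limma adjusted p = 2.08e-06) but not past the size required from both sensitive arrays. In that setting limma used only the spread pooled over genes, so the gap of 0.75 between the sensitive arrays did not weigh on Cd14's own p. Across the 17742 genes, 91.5% had a lower difference than Cd14 as deposited.

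The TAM receptors gave no call. Axl read 342 units on the resistant array, against 337 and 299 on the sensitive arrays, a difference of 0.09 (SE 0.27, limma adjusted p = 0.795) as deposited and 0.79 (SE 0.21, limma adjusted p = 0.0678) after scaling. Its second probe read 20.2 units on the resistant array, against 50.9 and 23.7 on the sensitive arrays. Mertk, which marks macrophages that clear dying cells, read 12.4 units on the resistant array, against 7.45 and 15.8 on the sensitive arrays. All Mertk readings were under 50 units, a limit chosen here, so its level could not be compared. The bridging ligands Gas6 and Pros1, which link TAM receptors to phosphatidylserine, were not called either (-0.31, limma adjusted p = 0.453, and -0.57, limma adjusted p = 0.0685). Both ligands were chosen after their values were seen.

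**Figure D3:**
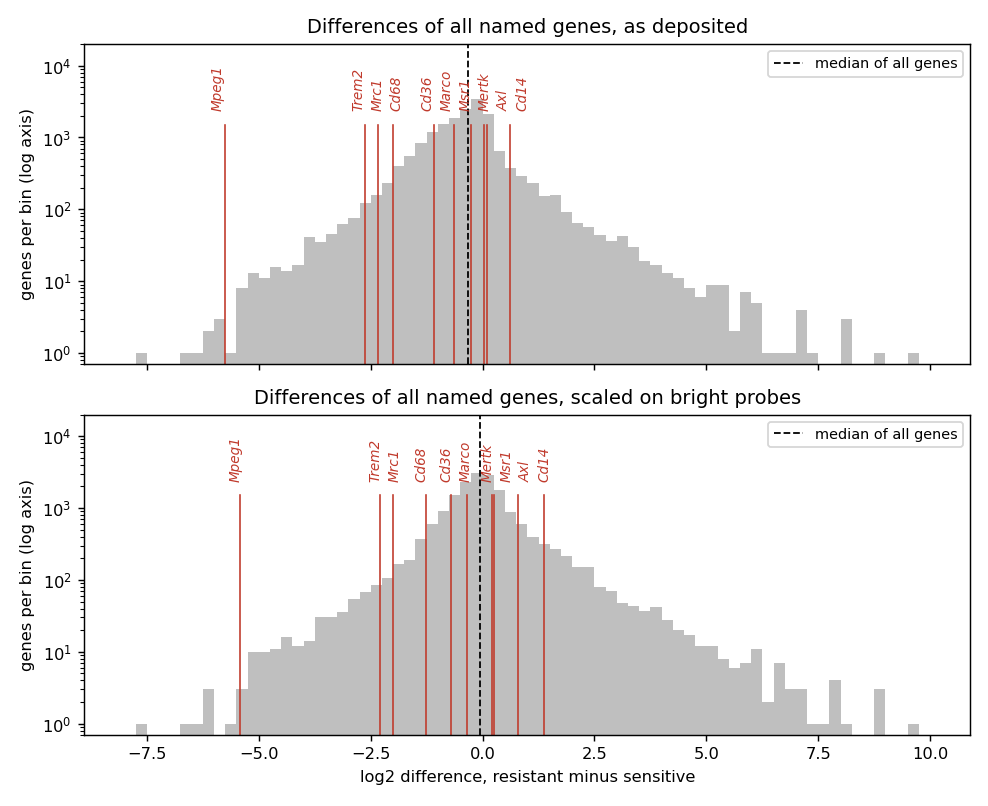
Distribution of the log2 difference, resistant minus sensitive, over the 17742 named genes as deposited (top) and after scaling on bright probes (bottom), with genes per bin on a log axis, the median of all genes as a dashed line (-0.33 and -0.06) and the 10 receptors as red lines. Mpeg1 stands in the far lower tail on both scales, and Trem2, Mrc1 and Cd68 stand in the lower part of the distribution.

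Within the TREM family the genes moved apart. All 6 measured family genes lie on chromosome 17, and those beyond Trem2, Treml2 and Trem3 are given although they were chosen after their values were seen. Treml2 read 20.2 units on the resistant array, against 324 and 388 on the sensitive arrays, and fell with Trem2 (log2 difference -2.53, limma adjusted p = 3.01e-05). Trem1, an activating receptor that amplifies inflammation in neutrophils and monocytes, read 1122 units on the resistant array, against 266 and 434 on the sensitive arrays. It rose (1.58, SE 0.29, limma adjusted p = 0.000744). Trem3, a further activating receptor of the mouse, read 2802 units on the resistant array, against 425 and 584 on the sensitive arrays. It rose by more (2.38, SE 0.24, limma adjusted p = 1.09e-05), and after scaling the differences of Trem1 and Trem3 were 2.33 and 3.14. Treml4 (-0.86) and Treml1 (-0.19) were not called, and Treml1 read under 50 units on all arrays.

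**Figure D4:**
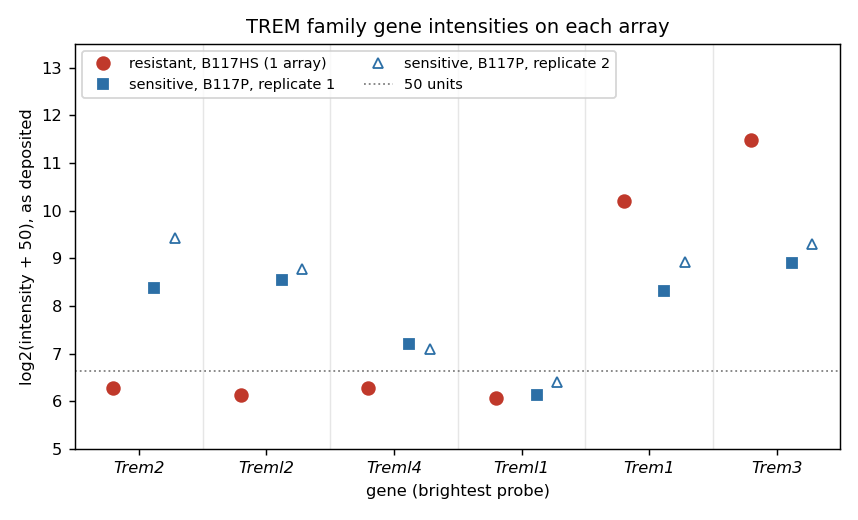
Intensity of 6 TREM family genes on each array, as log2(intensity + 50) on the deposited scale, with red circles for the resistant array and blue squares and open triangles for the sensitive replicates 1 and 2. Trem2 and Treml2 lie under the 50-unit line on the resistant array, whereas Trem1 (1122 units) and Trem3 (2802 units) lie above both sensitive arrays.

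In the list of receptor partners that holds the TREM genes and the Cd14 and Toll-like receptor pathway, 3 of 16 measured genes were called higher and 6 lower as deposited, and 3 rose and 3 fell. The list's median was -0.58 as deposited and 0.00 after scaling. Besides Treml2, those that fell were Cd180, a Toll-like receptor homologue of B cells and macrophages (-3.42), and Tlr2, a receptor for bacterial lipoproteins (-2.07). Tlr4, the signalling partner of Cd14, read 583 units on the resistant array, against 137 and 204 on the sensitive arrays, and rose (log2 difference 1.54, limma adjusted p = 0.00116); it was chosen after its value was seen. Tirap, an adaptor of Tlr2 and Tlr4, was called after scaling but not as deposited (1.93, against 1.19). The adaptor Hcst was not called (-0.54 as deposited and 0.18 after scaling).

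Other scavenger receptors were called in both directions. Of 16 measured, 2 rose and 3 fell, with a median of -0.36 as deposited and -0.14 after scaling. Lrp1, a large endocytic receptor for lipoproteins and protease complexes, read 21.8 units on the resistant array, against 791 and 995 on the sensitive arrays (log2 difference -3.71, limma adjusted p = 7.26e-07). Cd163, the haemoglobin-haptoglobin receptor of macrophages, read 10.9 units on the resistant array, against 608 and 489 on the sensitive arrays (-3.29). Cd5l, a secreted macrophage protein, fell by 2.02 on the log2 scale. Olr1, a lectin-like receptor for oxidised lipoprotein, moved the other way, with 700.002 units on the resistant array, against 65.8 and 30.3 on the sensitive arrays (2.96, limma adjusted p = 1.71e-05). Stab1, a receptor of alternatively activated macrophages, was not called (-0.89), and Scarb2, a lysosomal membrane receptor, was called only after scaling (1.24, against 0.52 as deposited).

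For uptake of dying cells, 1 of 19 measured genes rose and 4 fell, 5 being called lower as deposited, with medians of -0.50 and -0.18. Elmo1, which couples engulfment receptors to Rac, read 42.0 units on the resistant array, against 2502 and 1783 on the sensitive arrays (-4.56, limma adjusted p = 9.29e-08). The integrin beta chains Itgb5 (-2.18) and Itgb3 (-2.10) fell, while their partner Itgav, the alpha v chain, rose (1.89). Calr (-0.23) and Abca7 (-0.60) were not called, and after scaling their differences were 0.54 and 0.16.

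Among Fc and complement receptors, 2 of 14 rose and 3 fell, 4 being called lower as deposited. Fcgr3 rose (5.97), whereas Itgax, the CD11c integrin chain (-4.66), C3ar1, the receptor for complement fragment C3a (-2.72), and Fcgr4 (-2.31) fell. The phagocytosis checkpoint ligand gene Cd47 (0.15) and the shared Fc receptor chain gene Fcer1g (-0.03 as deposited and 0.73 after scaling) were not called. This list's median was -0.02 as deposited and 0.58 after scaling.

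Lysosome and phagosome genes were called in both directions: 4 of 17 rose and 3 fell, with 5 called lower as deposited and 7 called higher after scaling. Lgmn, an endosomal cysteine protease gene, read 688 units on the resistant array, against 10474 and 15214 on the sensitive arrays (-4.10, limma adjusted p = 1.12e-07). Ctss, a protease of antigen-presenting cells (-3.87), and Hexa, a subunit of hexosaminidase (-3.86), also fell. Lamp2, a lysosomal membrane protein of the same family as Cd68, rose and read 41742 units on the resistant array, against 12628 and 12382 on the sensitive arrays (1.74, limma adjusted p = 2.73e-05). Lamp1 (0.62) and Ctsl (0.67) were not called as deposited but were called after scaling (1.39 and 1.44). The list median was 0.27 as deposited and 1.00 after scaling.

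Of 14 lipid handling genes, 6 rose and 2 fell. Lpl, lipoprotein lipase, read 2280.5 units on the resistant array, against 139 and 169 on the sensitive arrays (3.52, limma adjusted p = 7.2e-07). Cpt1a, the gate of mitochondrial fatty acid oxidation (3.32), and Plin2, a lipid droplet coat protein (1.96), rose as well, while the cholesterol exporter gene Abca1 fell (-1.92). Apoe (-1.03) and Fabp5 (-0.69) were not called. The list median was -0.09 as deposited and 0.41 after scaling.

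Of 13 regulators of the macrophage programme, 2 rose and 6 fell, and 3 were called higher as deposited. Tfec (1.66) and Mitf (1.13) rose, and Cebpb (1.73) was called higher as deposited only. These 3 were chosen after their values were seen. Csf1r, through which colony-stimulating factor 1 sustains macrophages (-5.14), and the transcription factor genes Irf8 (-5.10) and Klf4 (-2.32) fell with Il4ra (-2.31), a receptor whose signal raises Mrc1 in mouse macrophages. Spi1, which encodes PU.1, read 109 units on the resistant array, against 634 and 591 on the sensitive arrays (-2.06, limma adjusted p = 5.04e-05); it was chosen after its values were seen. Cebpa was called after scaling but not as deposited (1.72, against 0.98), and Csf2ra was not called (-0.78). The list median was -0.78 as deposited and -0.17 after scaling. Markers of macrophages and monocytes outside the 10 receptors gave 3 falls and 1 rise (Fcgr1) among 6 measured, and none read at or below 0. Csf1r and Cx3cr1 read under 50 units on the resistant array, while Siglec1, a lectin of tissue macrophages, read 163 units there, against 169 and 244 on the sensitive arrays. The summed intensity of the 6 markers was 1146 units on the resistant array, against 12676 and 13179.7 on the sensitive arrays. Most of each sensitive sum was Ccr2 (7636 and 7703 units), which read 415 units on the resistant array. Neutrophil and granule markers gave 4 rises (Elane, Ctsg, S100a8 and Lcn2) and 1 fall (Mmp8) among 11. They summed to 146643 units on the resistant array, against 110474 and 120013 on the sensitive arrays. Mpo, Ctsg, Prtn3 and Elane made up most of the resistant sum, and Mpo, Prtn3 and Ltf were not called. Camp, Ngp and S100a9 read under 50 units on every array. Dendritic cell markers gave 2 falls and no rise among 5, and summed to 266 units on the resistant array, against 2896 and 1678 on the sensitive arrays. Most of each sum was Flt3 (260 units, against 2589 and 1388), called lower as deposited only. Those that fell were Zbtb46 (17.1 units, against 226 and 220) and Siglech (-4.67 units, against 72.1 and 58.0). Xcr1 and Clec9a read under 50 units on every array. B lineage markers gave 2 rises and 2 falls among 7. Igll1, a surrogate light chain gene of pre-B cells, read 32384 units on the resistant array, against 194 and 199 on the sensitive arrays, and the other 6 summed to 688 units on the resistant array, against 4666 and 5045 on the sensitive arrays. Mpo and the markers named here were chosen after their values were seen, except Csf1r. The part of these shifts in the receptor differences was not tested.

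**Figure D5:**
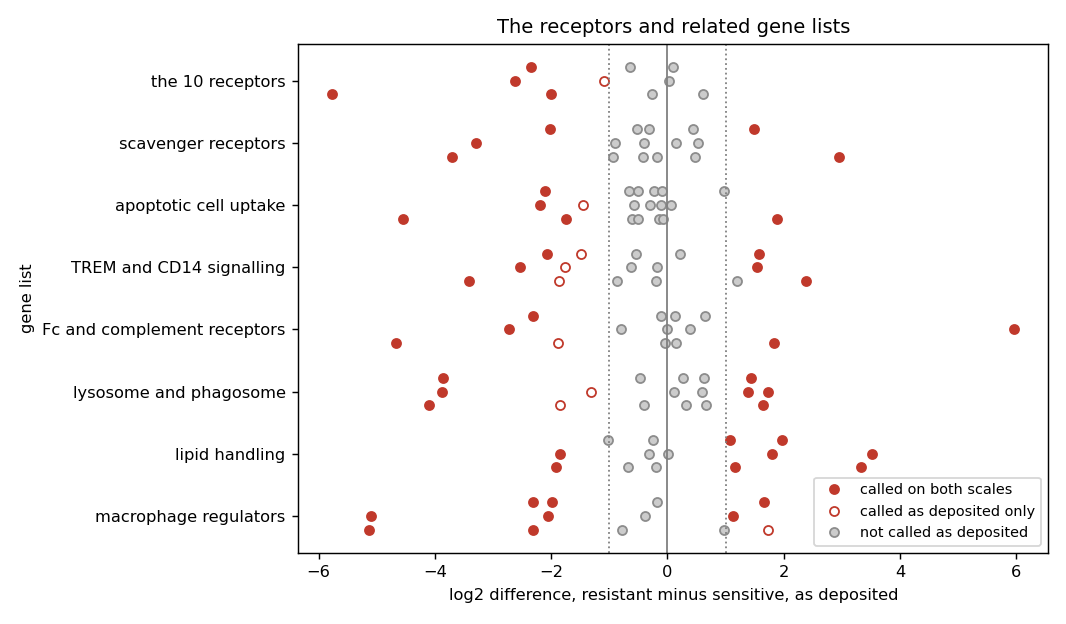
Log2 difference, resistant minus sensitive, as deposited, for the 10 receptors and 7 related gene lists; each point is a gene, filled red when called in the same direction on both scales, open red when called as deposited only and grey when not called as deposited, with dotted lines at -1 and 1. The receptors lie from -5.76 to 0.61. None of the 10 was called higher, where 5.23% of all genes were. Each related list, of 13 to 19 genes, holds called genes on both sides of 0.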

How the data were processed

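Total RNA of cultured mouse cells was labelled with Cy5, 1 colour per array, per the labels. The authors deposited 1 table of intensity values for 26423 probes on 3 arrays. The values are linear and reach below 0, as they can after background subtraction. The sorted columns differed, so the arrays were not quantile normalized. The sources used here do not name the scanner, the image software or the normalization. Spot quality flags were not used, so failed spots cannot be told from absent transcripts, and having 3 arrays limits the precision.

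Probes were named by the platform's gene symbols, with 2126 older names updated through the GRCm38.p6 annotation; 6046 probes had no symbol. The deposited values were kept and transformed as log2(intensity + 50), which understates the change of dim genes. limma 3.58.1 in R 4.3.3 (lmFit, eBayes with a variance trend) was fitted to all 17742 genes with 1 residual degree of freedom and a prior of 11; the resistant group's spread was taken to equal that of the sensitive group. The fit was also run on simulated arrays in which the resistant array had the sensitive arrays' spread and no overall dimming. That run cannot show whether the equal spread holds here. Sums, lists and figures were made in Python 3.11.15 (numpy 2.4.6, pandas 2.3.3, matplotlib 3.10.9). The members, gene lists, motifs and tests were chosen with earlier results of these data known. From each of 7 related lists the text names up to 4 called genes, ranked on whichever sensitive array lay closer to the resistant one, and the 2 brightest not called, and it names the 5 genes nearest in profile to Mpeg1; other genes named are marked as chosen after their values were seen. Alternatives were other scalings, offsets of 16 and 100, a floor of 50, leaving out the dimmest 25% of genes, the mean of a gene's probes, other eBayes settings and leaving out each sensitive array.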

Additional observations from a re-analysis of the deposited data

How the results depend on the processing

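Mpeg1 and Mrc1 were called lower, or by size alone where a sensitive array was left out, in every alternative except the floor of 50 units, and all 5 receptors called as deposited kept their direction in all 12 alternatives. Of all genes, 3284 were called lower and 928 higher as deposited; the counts were 996 lower after quantile normalization, 1373 lower and 1600 higher after centring on array medians, 1500 lower and 1749 higher after scaling on bright probes, and 26 lower and 133 higher with the floor. The receptors called lower were 2 after quantile normalization and 0 with the floor, where limma put 4 lower and 0 higher at an unadjusted p under 0.05. With the floor, 4337 of all 17742 genes were lower and 1273 higher at that p. Of 109 genes in the related lists, 31 were called lower and 21 higher as deposited, 18 lower after quantile normalization, and 1 lower and 0 higher with the floor (34 lower and 15 higher at an unadjusted p under 0.05). Readings raised to the same floor gave some genes no spread, and the prior degrees of freedom were 0.744 there, against 11 as deposited. They were 1.58 after quantile normalization and 2.54 after scaling on bright probes. After centring they were infinite, so a gene's own spread did not enter its p-value there. Leaving out a sensitive array, a difference with no test, kept 5 receptors past the size and gave 3625 to 4288 genes lower and 976 to 1108 higher. Cd36 lost its call after quantile normalization, centring, scaling on bright probes, an offset of 100 and averaging its probes as well. Quantile normalization also ended the calls of Abca1, C3ar1, Fcgr4, Il4ra and Itgb3, with adjusted p from 0.0586 to 0.0981 in limma. Signs turned, without a call, for Msr1 (0.28 quantile, 0.30 centred, 0.25 scaled), Fcer1g (0.12, 0.53 and 0.73), Hcst (0.10, 0.027 and 0.18), Calr (0.34 centred, 0.54 scaled) and Abca7 (0.16 scaled); the cause was not tested. No paired analysis was possible because the resistant array carries no replicate number. Readings under 50 units on the resistant array limit the comparison of 6 receptors (Mpeg1, Trem2, Mrc1, Cd36, Marco and Mertk).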

Other observations

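Several genes of the related lists beyond those named by rule rose on both scales; they were chosen after their values were seen. The cathepsin genes Ctsb (log2 difference 1.65), Ctsd (1.44) and Ctsz (1.39), proteases of the lysosome, read higher in resistant cells, in contrast to Ctss. Scarb1, the class B receptor that takes up cholesterol from high-density lipoprotein, read 5312 units on the resistant array, against 1947 and 1757 on the sensitive arrays, and rose by 1.50 on the log2 scale (SE 0.20, limma adjusted p = 9.15e-05). The cholesterol exporter gene Abcg1 read 1249 units on the resistant array, against 271 and 381 on the sensitive arrays (1.80), opposite to Abca1. Mfge8, a bridging protein that binds phosphatidylserine on dying cells, fell (-1.75, and -1.15 after scaling) and was also chosen after its values were seen. It read 128 units on the resistant array, against 487 and 611 on the sensitive arrays.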
